A study of Mus musculus with 36 samples.

Results

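The mRNAs described here come from 9 genes on the output side of the circadian clock, measured in mouse liver: the PAR bZip transcription factors Dbp, Tef and Hlf, their competitor Nfil3, the E-box repressors Bhlhe40 (Bhlhb2 on the array), Bhlhe41 (Bhlhb3) and Ciart (Gm129), the deubiquitinating enzyme Usp2 and the cell cycle kinase Wee1. Members were taken by gene name or by current symbol of the probe's accession, which gave 15 probes for 9 of the 19750 named genes on the array. The authors' processed table held 13 of these probes, for 8 genes, among 21781 probes in all. Wee1 and the second Bhlhe41 probe were outside that table and were read from the scanner files.

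The samples were livers of 36 adult male mice in 3 groups of 12. The sample labels give the strain as C57BL/6J and the methods name the substrain C57BL/6JOlaHsd. All mice first ate a diet with 30 energy % fat, for 3 weeks according to the sample labels. The t=0 group was killed at that point, while the control group (HF) stayed on the same diet for 12 weeks and the quercetin group (HF-Q) ate it with 0.33% (w/w) quercetin, a plant flavonol, for 12 weeks. All mice fasted for at least 2 h before death, and the time of day of each death is not given in the sources used here. The t=0 mice were younger than the others, so that age and weeks on the diet cannot be told apart in a comparison with t=0. Each array carried Cy5-labelled cRNA of 1 mouse and a Cy3-labelled pool of all samples. Values in the authors' table are log2 values of the Cy5 signal normalized to Cy3, and a difference of 1 between groups is a doubling.

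In the molecular clock, the CLOCK and BMAL1 proteins (BMAL1 is encoded by Arntl) bind E-box sequences and drive the Per, Cry and Rev-erb genes, whose products repress CLOCK and BMAL1 or Arntl in turn. The same E-box binding drives output genes such as Dbp, so that Dbp and Arntl transcripts peak at nearly opposite times of the day in liver. DBP, TEF and HLF activate genes through D-box sequences, NFIL3 represses through the same sequences, and REV-ERB proteins act on RORE sequences of Arntl and Nfil3. In liver, PAR bZip factors are known for driving genes of drug and bile acid metabolism.

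RefSeq promoter windows, from 250 bases before to 50 bases after a transcription start on build GRCm38.p6, were at hand for 7 of the 9 genes, in 8 windows, while Wee1 and Bhlhe40 had none in the table used. On both strands, the E-box CACGTG was found for 3 of the 7 genes. It was in 7.15% of all 32851 windows, which is a share per window and not per gene, and Tef had 2 windows. The RORE, written ANTAGGTCA, was found for Nfil3, against 0.661% of all windows. The 160 bases before the start are given for the windows with a match, to show where the E-box bound by CLOCK and BMAL1, or the RORE, lay in them. Capitals mark the E-box, or the RORE read on the opposite strand in Nfil3.
Ciart, chr3:95882229-95882388 (- strand): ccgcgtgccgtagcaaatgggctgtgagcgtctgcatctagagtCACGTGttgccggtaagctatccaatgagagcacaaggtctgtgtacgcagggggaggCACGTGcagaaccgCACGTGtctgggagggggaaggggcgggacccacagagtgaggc
Tef window 1, chr15:81802513-81802672 (+ strand): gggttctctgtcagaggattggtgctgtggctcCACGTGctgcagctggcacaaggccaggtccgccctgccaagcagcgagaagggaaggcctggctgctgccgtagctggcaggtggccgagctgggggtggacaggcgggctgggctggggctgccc
Tef window 2, chr15:81811254-81811413 (+ strand): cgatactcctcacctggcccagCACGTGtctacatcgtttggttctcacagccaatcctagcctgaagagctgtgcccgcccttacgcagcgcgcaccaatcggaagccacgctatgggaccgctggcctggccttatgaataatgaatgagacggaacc
Bhlhe41, chr6:145865421-145865580 (- strand): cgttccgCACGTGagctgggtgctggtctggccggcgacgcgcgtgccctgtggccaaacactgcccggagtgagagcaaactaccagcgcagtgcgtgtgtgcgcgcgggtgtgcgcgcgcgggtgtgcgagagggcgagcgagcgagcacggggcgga
Nfil3, chr13:52981040-52981199 (- strand): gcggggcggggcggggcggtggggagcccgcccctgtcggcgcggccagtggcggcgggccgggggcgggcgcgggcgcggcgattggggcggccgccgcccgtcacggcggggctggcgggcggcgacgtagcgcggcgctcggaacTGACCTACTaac

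Ciart, a repressor of CLOCK and BMAL1, held 3 E-boxes, which began 116, 58 and 44 bases before the start. The E-box of Tef began 127 and 138 bases before its 2 annotated starts, and that of Bhlhe41 began 153 bases before. The RORE of Nfil3 began 12 bases before the start, and in Arntl the match AGTAGGTCA began at base 29 after the second of 2 annotated starts. The windows of Dbp, Hlf and Usp2 held none of the letters searched, and the E-box variant CACGTT (4.68% of windows) and the D-boxes TTATGTAA (0.938%) and TTACGTAA (0.119%) were in no member window. These matches are descriptions of the windows and were not tested against the expression data.

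The arrays lay on 9 slides of 4, and every slide held all 3 groups. The share of spots well above background in Cy5 was between 56.42% and 67.35% on 35 arrays and 96.72% on the array of HF-Q replicate 2, and values without that mouse are given beside the results on dim probes that it moved. All 6 hepatocyte markers (Alb, Apoa1, Ttr, Hnf4a, Cps1 and Tat) were in the table, and none differed between HF-Q and HF. Their summed level was 19.47 to 20.2 in t=0, 19.7 to 20.19 in HF and 19.59 to 20.36 in HF-Q (log2). This sum followed mostly the brightest marker, Alb (group means 19.22 to 19.25), and says little about the dimmer ones. Of 12 markers of other liver, blood, pancreas and fat cells, 9 were in the table, with a summed level of 14.72 to 15.47 in t=0, 15.31 to 18.18 in HF and 15.5 to 16.39 in HF-Q. The top of the HF range was 1 mouse, HF replicate 5, in which the pancreatic elastase Cela1 reached 17.94, against at most 9.15 in the other 35 mice. In those mice the sum followed mostly haemoglobin Hba-a1 (group means 14.33 to 15.54), and says little about the dimmer markers of other cells. Of these markers the endothelial Pecam1 differed in the same direction as Dbp, at 0.38 (SE 0.08, adjusted p = 0.00734, limma) between HF-Q and HF and -0.34 (SE 0.08, adjusted p = 0.0036) between HF and t=0, and the part of these markers in the results was not tested. Against t=0, haemoglobin Hba-a1 was higher in HF (0.93, adjusted p = 0.000308) and HF-Q (1.21, adjusted p = 4.05e-07), the bile duct keratin Krt19 was higher in HF (0.42, adjusted p = 0.0269), and the hepatocyte enzyme Cps1 was lower in HF (-0.32, adjusted p = 0.0184) and HF-Q (-0.45, adjusted p = 0.00294, limma), as was Ttr in HF-Q (-0.33, adjusted p = 0.0377). In bulk liver, fewer cells of a type and less RNA per cell cannot be told apart.

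Between the quercetin and the control group, Dbp, Tef, Ciart and Usp2 were higher in HF-Q, and no member was lower at the threshold. This was 4 of the 8 genes in the table by their brightest probes, and 7 of 13 probes, all 7 higher in HF-Q. Usp2 is among them, and the paper had already reported it as up-regulated on these arrays. Over all 21781 probes, 2.36% were called at an adjusted p under 0.05 (limma, Benjamini-Hochberg), 1.49% higher and 0.863% lower in HF-Q. The median difference of the 8 genes was 0.49, against 0.013 for all probes. The groups overlapped for each of the 13 probes.

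Dbp encodes the PAR bZip factor with the widest daily swing in liver and was read by probe A_51_P180492 (chromosome 7, positions 45577937 to 45577996 of build mm8, the build of all probe positions here). Dbp ranged from 14.36 to 16.19 in HF (median 14.94) and from 15.01 to 16.55 in HF-Q (median 15.99). All 12 HF-Q mice lay above the HF median, and 5 lay above every HF mouse. The difference was 0.92 (SE 0.19, 1.89-fold, adjusted p = 0.00741, limma), and within slides it was above 0 in 7 of 9. With all 36 arrays in 1 fit, which takes in the wider spread of the t=0 mice, the adjusted p was 0.0683.

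Tef, another PAR bZip factor, had 4 probes on chromosome 15, of which A_52_P485573 (positions 81653753 to 81653812) was the brightest. It ranged from 11.5 to 12.56 in HF (median 11.82) and from 11.72 to 12.85 in HF-Q (median 12.53). Only 1 of 12 HF-Q mice lay below the HF median. The difference was 0.63 (SE 0.12, 1.54-fold, adjusted p = 0.00414, limma) and was called under all 15 alternatives. The dimmer probes A_51_P450561 and A_52_P173309 gave 0.48 and 0.52 and were called too, though not under 4 and 3 alternatives (highest adjusted p 0.0895 and 0.0899). Without HF-Q replicate 2 they gave 0.45 and 0.47 (adjusted p = 0.0136 and 0.0107), and A_52_P658073 gave 0.28 with all mice (adjusted p = 0.138). In deviations from the group means over 36 mice, the 4 Tef probes correlated with each other at r = 0.58 to 0.86.

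Hlf, the third PAR bZip factor (A_51_P134228, chromosome 11, positions 90154754 to 90154813), ranged from 10.05 to 11.08 in HF (median 10.34) and from 10.35 to 11.14 in HF-Q (median 10.71). All 12 HF-Q mice lay above the HF median, yet the difference of 0.34 (SE 0.10, 95% interval 0.13 to 0.55) did not pass the adjusted threshold (adjusted p = 0.0727, limma). It passed under 5 of 15 alternative settings, among them the loess ratios from the scanner files (adjusted p = 0.0364) and the fit without HF replicate 5 (adjusted p = 0.0485).

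Nfil3, which represses the D-box genes that Dbp activates, was read by 2 probes on chromosome 13 that correlated at r = 0.96 in deviations from the group means. The brighter A_52_P500027 (positions 52979648 to 52979707) ranged from 11.61 to 12.87 in HF (median 12.3) and from 11.46 to 12.61 in HF-Q (median 11.99). In HF-Q, 11 of 12 mice lay below the HF median. The difference was -0.31 (SE 0.13, 95% interval -0.58 to -0.04, adjusted p = 0.238, limma), and that of the other probe was -0.31 (adjusted p = 0.166). Nfil3 was not called between these groups under any of 15 alternatives.

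Of the E-box repressors, Ciart was called and Bhlhe40 and Bhlhe41 were not, and the differences were not tested against each other. Ciart (A_52_P63343, chromosome 3, positions 95963915 to 95963974) ranged from 6.08 to 8.56 in HF (median 6.96) and from 7.28 to 8.88 in HF-Q (median 8.1). All 12 HF-Q mice were above the HF median, and the difference was 1.03 (SE 0.23, 2.04-fold, adjusted p = 0.0143, limma). With slide as a fixed block it was 0.84 (adjusted p = 0.0719), with all 36 arrays in 1 fit 1.03 (adjusted p = 0.0819), and from the processed signals of Feature Extraction 1.6 (adjusted p = 0.015). From the loess ratios it was 0.71 (adjusted p = 0.0233), and with no filter and HF-Q replicate 2 left out 0.69 (adjusted p = 0.054). The Ciart probe was well above background in Cy5 on 9 of 12 t=0 arrays and on all HF and HF-Q arrays. Bhlhe40 (A_51_P272553, chromosome 6, positions 108632092 to 108632151) ranged from 10.86 to 11.77 in HF and from 11.06 to 11.64 in HF-Q, with medians of 11.27 and 11.44. Its difference of 0.14 (SE 0.10, 95% interval -0.06 to 0.35, adjusted p = 0.496, limma) was smaller than the spread between HF mice (SD 0.32).

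Bhlhe41, a close relative of Bhlhe40, was dim. Probe A_51_P451176 (chromosome 6, positions 145819914 to 145819973) was well above background in Cy5 on 8 of 12 t=0, 7 of 12 HF and 12 of 12 HF-Q arrays. It ranged from 5.71 to 6.62 in HF (median 6.38) and from 6.29 to 7.79 in HF-Q (median 6.63), the 7.79 being the array of HF-Q replicate 2. The difference was 0.35 (SE 0.12, adjusted p = 0.15, limma), or 0.25 without that mouse (adjusted p = 0.156), and was not called under any of 14 alternatives. The second probe, A_52_P618912, was well above background on 1 of 12 arrays of each group, and no fold is given for it.

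Usp2, a deubiquitinating enzyme whose liver mRNA cycles, had the largest difference of the 8 genes. The brighter probe A_51_P172663 (chromosome 9, positions 43843736 to 43843795) ranged from 7.4 to 9.62 in HF (median 7.99) and from 8.88 to 10.45 in HF-Q (median 9.68). All 12 HF-Q mice lay above the HF median, 6 of them above every HF mouse, and within slides HF-Q was higher in 9 of 9. The difference was 1.56 (SE 0.23, 95% interval 1.08 to 2.04, 2.95-fold, adjusted p = 0.000568, limma). The paper already lists Usp2 among its most regulated genes on these arrays, at 2.95-fold, so this value is no independent result. The array assigns a second transcript of Usp2 to probe A_52_P255489 (positions 43845948 to 43846007), which was well above background on 4 of 12 HF and 12 of 12 HF-Q arrays. It ranged from 5.47 to 6.79 in HF and from 6.62 to 8.12 in HF-Q, with HF-Q replicate 2 at the top, and differed by 0.77 (SE 0.14, adjusted p = 0.00294, limma). Without HF-Q replicate 2 the difference was 0.67 (adjusted p = 0.00194). The size of this dim probe's difference followed the treatment of background, with 0.37 from the loess ratios and 1.91 from the processed signals of Feature Extraction.

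Wee1 encodes the kinase that holds cells back from mitosis, and its promoter is a known clock target. Probe A_52_P160078 (chromosome 7, positions 109930824 to 109930883) was well above background in Cy5 on 5 of 12 t=0, 1 of 12 HF and 9 of 12 HF-Q arrays. As a log2 ratio over the pool it ranged from -0.37 to -0.01 in HF (median -0.18) and from -0.13 to 0.24 in HF-Q (median 0.00). In a fit over all 41174 probes of the scanner files, in which 1.2% were called, the difference was 0.25 (SE 0.05, adjusted p = 0.00657, limma). It was 0.26 without HF-Q replicate 2 (adjusted p = 0.00797). As most HF arrays read it near background, the size is not well measured.

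**Figure D1:**
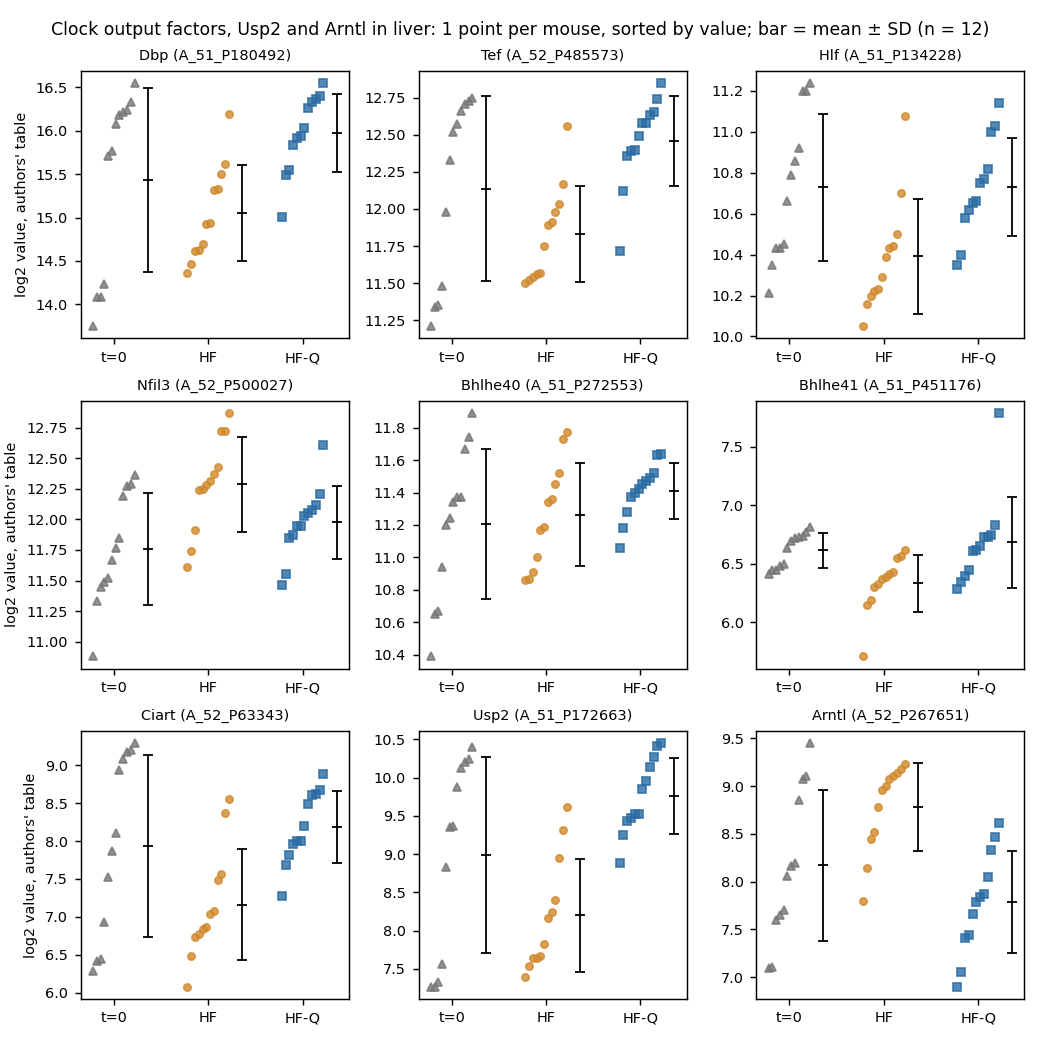
Log2 values of the authors' table (y axis, a separate scale for each gene) for the brightest probe of the 8 genes and Arntl in the t=0, HF and HF-Q groups, with 1 point per mouse sorted by value and a bar for the mean ± SD (n = 12). Dbp, Tef, Ciart and Usp2 sit higher in HF-Q than in HF, Arntl sits lower, and 4 of the 12 t=0 mice lie apart at the bottom for Dbp (13.75 to 14.23) and at the top for Arntl (8.85 to 9.45).

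Set against t=0, Nfil3 was higher in the control mice and no member was called in the quercetin mice. With so few genes, the counts by gene do not set the members apart from the shares of all probes. Between HF and t=0, Nfil3 was higher and Bhlhe41 lower in HF by the brightest probes, 2 of 8 genes. By probe, 6 of 13 were called, 2 higher (both of Nfil3) and 4 lower (2 of Tef, 1 of Bhlhe41 and 1 of Usp2), where 21.3% of all probes were called, 10.9% higher and 10.4% lower. Between HF-Q and t=0, 0 of 13 probes were called by limma, of which 1 had an unadjusted p under 0.05 (Usp2 A_51_P172663, p = 0.0399), where 11.9% of all probes were called, 6.62% higher and 5.3% lower. The methods' t-test also called 0 of 13. These comparisons share their mice with each other and with HF-Q against HF.

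Nfil3 A_52_P500027 ranged from 10.88 to 12.36 in t=0 (median 11.72), and 11 of 12 HF mice lay above that median. The difference was 0.53 (SE 0.16, 1.45-fold, adjusted p = 0.0177, limma) and that of A_51_P111492 was 0.49 (adjusted p = 0.021). With slide as a fixed block the differences were 0.46 (adjusted p = 0.0656) and 0.43 (adjusted p = 0.0659). Bhlhe41 A_51_P451176 ranged from 6.41 to 6.82 in t=0 (median 6.67), above all 12 HF mice by its median, and the difference was -0.28 (SE 0.08, adjusted p = 0.0129, limma). From the processed signals of Feature Extraction it was -0.39 (adjusted p = 0.14) and after quantile normalization -0.16 (adjusted p = 0.0618).

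For Tef, the dim probes A_52_P173309 and A_52_P658073 fell by 0.45 and 0.35 on the log2 scale from t=0 to HF (adjusted p = 0.00289 and 0.0171, limma), while the brightest differed by -0.30 (SE 0.19, adjusted p = 0.241). From the loess ratios these dim probes differed by -0.23 (adjusted p = 0.0465) and -0.21 (adjusted p = 0.0615), and A_52_P658073 was not called under 4 of 11 alternatives, among them slide as a fixed block (-0.33, adjusted p = 0.0558). For Usp2, the dim probe fell by 0.48 (SE 0.14, adjusted p = 0.0188) and was no longer called from the loess ratios (-0.23, adjusted p = 0.0967), while the brighter one differed by -0.78 (SE 0.39, 95% interval -1.58 to 0.01, adjusted p = 0.146). Hlf differed by -0.34 (SE 0.12, adjusted p = 0.0503), and passed the threshold under 9 of 12 alternatives. Dbp (-0.38, SE 0.31, adjusted p = 0.39) and Ciart (-0.78, SE 0.37, adjusted p = 0.127) did not pass. Wee1 differed by -0.18 between HF and t=0 (adjusted p = 0.108) and 0.07 between HF-Q and t=0 (adjusted p = 0.658), in fits over all scanner probes in which 9.63% and 6.48% were called.

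The t=0 mice spread more widely than the others for the genes with the largest differences. The SD of Dbp was 1.06 in t=0, 0.55 in HF and 0.45 in HF-Q (n = 12 each), and that of Usp2 A_51_P172663 was 1.28, 0.74 and 0.49. Dbp was 13.75 to 14.23 in t=0 replicates 2, 3, 4 and 6 and 15.71 to 16.55 in the other 8 t=0 mice, a gap of 1.48 in a range of 2.8. Usp2 A_51_P172663 was 7.27 to 7.57 in the same 4 mice and 8.83 to 10.4 in the other 8. In these 4 mice Arntl was 8.85 to 9.45, against 7.1 to 8.2 in the other 8. The 4 mice also held the lowest t=0 values of all 4 Tef probes, of Ciart and of the second Usp2 probe, and the highest of both Nfil3 probes, whereas Hlf, Bhlhe40 and Bhlhe41 overlapped between the 2 sets. Nfil3 A_52_P500027 was 12.19 to 12.36 in these 4 mice, near the HF median of 12.3, and 10.88 to 11.85 in the other 8. The sets were seen in the values themselves, so these levels are a description with no test.

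**Figure D2:**
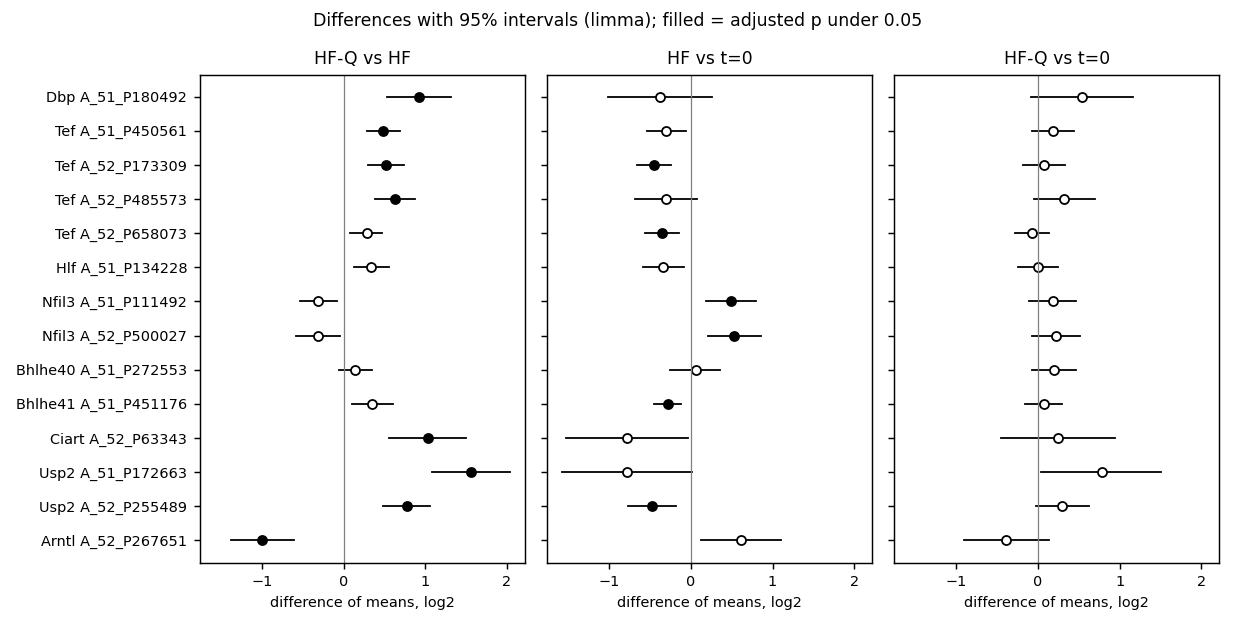
Difference of group means (x axis, log2) with its 95% interval for the 13 member probes in the authors' table and Arntl, in HF-Q against HF (left), HF against t=0 (middle) and HF-Q against t=0 (right), with filled points at an adjusted p under 0.05 (limma, 12 mice per group). The 7 filled member points on the left all lie above 0, and none is filled on the right.

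The relation to Arntl inside each group was asked because the mRNA of this clock activator runs opposite to the output genes over the day. Arntl (A_52_P267651, chromosome 7, positions 113104645 to 113104704) ranged from 7.1 to 9.45 in t=0 (median 8.11), from 7.8 to 9.23 in HF (median 8.98) and from 6.9 to 8.61 in HF-Q (median 7.81). All 12 HF-Q mice lay below the HF median, with a difference of -1.0 (SE 0.19, adjusted p = 0.0034, limma), and HF against t=0 differed by 0.61 (adjusted p = 0.0695). The plan was to use all 12 mice of each group. After the separate t=0 sets had been seen in the values of Dbp and Usp2 A_51_P172663, the relation in t=0 was restricted to the 8 mice of the larger set. The other 4 were too few. As values of the members themselves picked these 8 mice, the p-values in t=0 are given as a description and are not valid tests. Over 13 probes of 8 genes and 3 groups, 39 relations were tested by permutation, and 16 passed: 4 in t=0, 6 in HF and 6 in HF-Q. Benjamini-Hochberg adjustment ran over all 39, so the adjusted p-values in HF and HF-Q also depend on the t=0 p-values. Only member probes were tested. No share over all probes stands beside these counts, and they do not set the members apart from other genes. With all 12 t=0 mice, as planned, 27 passed. Of the 16, 14 ran opposite to Arntl, and the 2 that ran with it were the Nfil3 probes in HF-Q. The 14 include the 4 in t=0, which are not valid tests.

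Dbp ran opposite to Arntl in every group. Over the 12 HF mice Pearson's r was -0.94 (Spearman's rho -0.85, permutation p = 4e-05 for r and 0.00093 for rho, adjusted p = 0.00156 and 0.0314). Over the 12 HF-Q mice r was -0.71 (rho -0.71, permutation p = 0.00895 and 0.0126, adjusted p = 0.0268 and 0.0448), and over the 8 t=0 mice r was -0.87 (rho -0.93, exact permutation p = 0.00627 and 0.00223, adjusted p = 0.0267 and 0.0314). Without the 2 mice farthest from the Arntl median r was -0.85 in HF, -0.77 in HF-Q and -0.80 in the 6 t=0 mice left (exact permutation p = 0.0625). After subtraction of slide means r in HF-Q was -0.55 (adjusted p = 0.108, permutation).

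Tef A_52_P485573 behaved like Dbp in the diet groups, with r = -0.90 in HF (rho -0.77, permutation p = 0.00018 and 0.00479, adjusted p = 0.00351 and 0.0314) and r = -0.76 in HF-Q (rho -0.75, permutation p = 0.0024 and 0.0066, adjusted p = 0.0192 and 0.0314). In the 8 t=0 mice r was -0.68 (rho -0.81, exact permutation p = 0.0573 and 0.0218, adjusted p = 0.106 and 0.0535). Without the 2 farthest mice r was -0.70, -0.87 and -0.61 in HF, HF-Q and t=0. Of the dimmer Tef probes, A_51_P450561 passed in HF (r = -0.74) and A_52_P658073 in HF-Q (r = -0.73). Hlf passed in HF with r = -0.78 (rho -0.54, permutation p = 0.00451 and 0.0741, adjusted p = 0.0267 and 0.126), and its r of -0.19 without the 2 farthest mice shows that the value rests on those mice. In HF-Q the r of Hlf was -0.62 (adjusted p = 0.0735, permutation).

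Usp2 A_51_P172663 ran opposite to Arntl in all 3 groups. In HF r was -0.82 (rho -0.69, permutation p = 0.00246 and 0.0154, adjusted p = 0.0192 and 0.0502), in HF-Q -0.67 (rho -0.65, permutation p = 0.0178 and 0.0259, adjusted p = 0.0462 and 0.0561) and in the 8 t=0 mice -0.86 (rho -0.88, exact permutation p = 0.00816 and 0.00724, adjusted p = 0.0268 and 0.0314). Without the 2 farthest mice r was -0.52 in HF (permutation p = 0.118), -0.92 in HF-Q (permutation p = 0.00031) and -0.86 in the 6 t=0 mice left (exact permutation p = 0.0792). The relation of Usp2 was thus not established without those mice in HF and in t=0. The second Usp2 probe had r = -0.03 in HF-Q with all 12 mice and -0.89 without HF-Q replicate 2 (adjusted p = 0.00172, permutation).

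Ciart followed Usp2 closely, with r = -0.86 in HF (rho -0.66, permutation p = 0.00065 and 0.0236, adjusted p = 0.00845 and 0.0541) and -0.86 in the 8 t=0 mice (rho -0.86, exact permutation p = 0.00848 and 0.0107, adjusted p = 0.0268 and 0.0418). In HF-Q the r of Ciart was -0.60 (adjusted p = 0.0848, permutation) with all 12 mice and -0.88 without HF-Q replicate 2 (adjusted p = 0.00299). Without the 2 farthest mice it was -0.54 in HF (permutation p = 0.103) and -0.91 in the 6 t=0 mice left (exact permutation p = 0.0847). Nfil3 A_52_P500027 ran with Arntl in HF-Q at r = 0.68 (rho 0.77, permutation p = 0.0135 and 0.00508, adjusted p = 0.0376 and 0.0314), 0.60 without the 2 farthest mice, and at 0.41 in HF and 0.40 in t=0, which did not pass. Bhlhe40 had r = -0.58 in HF, -0.51 in HF-Q and -0.52 in t=0, none past the adjusted threshold, and Bhlhe41 had r = -0.26, 0.43 and -0.39.

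**Figure D3:**
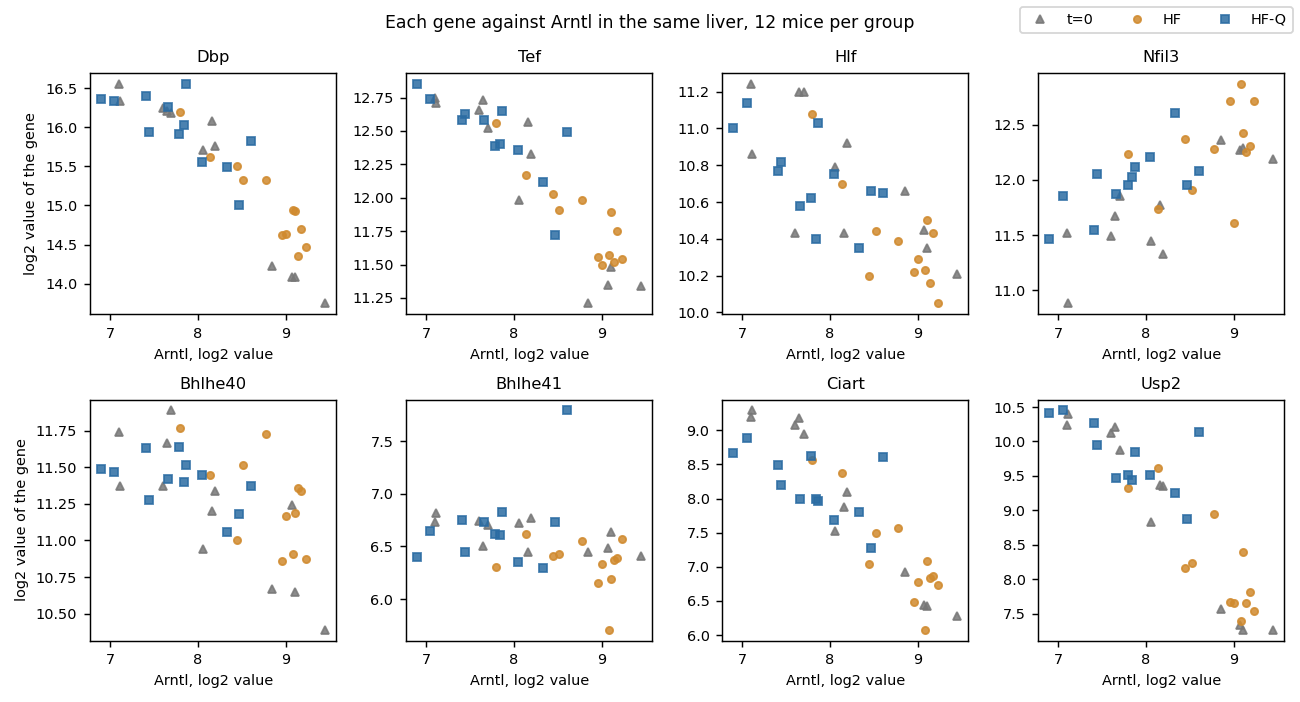
Log2 value of the brightest probe of each of the 8 genes (y axis) against the log2 value of Arntl in the same liver (x axis), with 12 mice each of t=0 (triangles), HF (circles) and HF-Q (squares). Dbp, Tef, Ciart and Usp2 fall as Arntl rises, Nfil3 rises with it, and the HF-Q square at an Arntl of 8.61 is replicate 2, which lies above the others for Bhlhe41 (7.79).

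A fit with the 2 diet groups and Arntl as a covariate gave the difference between HF-Q and HF at equal Arntl. It assumed 1 slope on Arntl for both groups. No member was called in it: 0 of 13 probes passed, where 0.00459% of 21780 probes (1 probe) passed and 3405 had an unadjusted p under 0.05. The difference of Dbp was 0.92 without and 0.10 with the covariate (SE 0.17, adjusted p = 0.827, limma). For Tef it went from 0.63 to 0.11 (SE 0.11), for Ciart from 1.03 to 0.14 (SE 0.24), for Hlf from 0.34 to -0.02 (SE 0.11) and for Nfil3 from -0.31 to 0.05 (SE 0.17). Without HF-Q replicate 2 the values at equal Arntl were -0.06 for Dbp, -0.03 for Tef and -0.21 for Ciart.

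Usp2 and Bhlhe41 had the largest values of the 8 genes in this fit, neither of them called and both dependent on HF-Q replicate 2. Usp2 A_51_P172663 differed by 0.65 at equal Arntl (SE 0.24, unadjusted p = 0.0122, adjusted p = 0.204, limma) and its second probe by 0.57 (SE 0.20, unadjusted p = 0.00868, adjusted p = 0.194). Without HF-Q replicate 2 the first was 0.31 (adjusted p = 0.857). Bhlhe41 differed by 0.47 (SE 0.18, unadjusted p = 0.0148, adjusted p = 0.214), by 0.17 without HF-Q replicate 2 (adjusted p = 0.888) and by 0.13 from the loess ratios (adjusted p = 0.716). Since Arntl itself differed between the groups, and was measured with error, these values are differences in this model and do not separate a part that goes through Arntl from one that does not.

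The slope on Arntl (log2 per log2) was -0.60 in HF-Q and -1.12 in HF for Dbp, -0.53 and -1.37 for Ciart, and -0.62 and -1.31 for Usp2 A_51_P172663, and a difference in slope was not established. The test of the difference in slope passed for 0 of 13 probes, and for 0% of all 21780 probes, of which 854 had an unadjusted p under 0.05. The differences in slope were 0.51 for Dbp (SE 0.22, unadjusted p = 0.0312), 0.84 for Ciart (SE 0.32, unadjusted p = 0.0137) and 0.69 for Usp2 (SE 0.33, unadjusted p = 0.0473). The adjusted p was 0.986 for each (limma). If the slopes do differ, the difference at equal Arntl depends on the Arntl value at which it is read. Without HF-Q replicate 2 they were 0.38, 0.51 and 0.35, and with slide as a fixed block 0.63, 1.29 and 1.15.

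**Figure D4:**
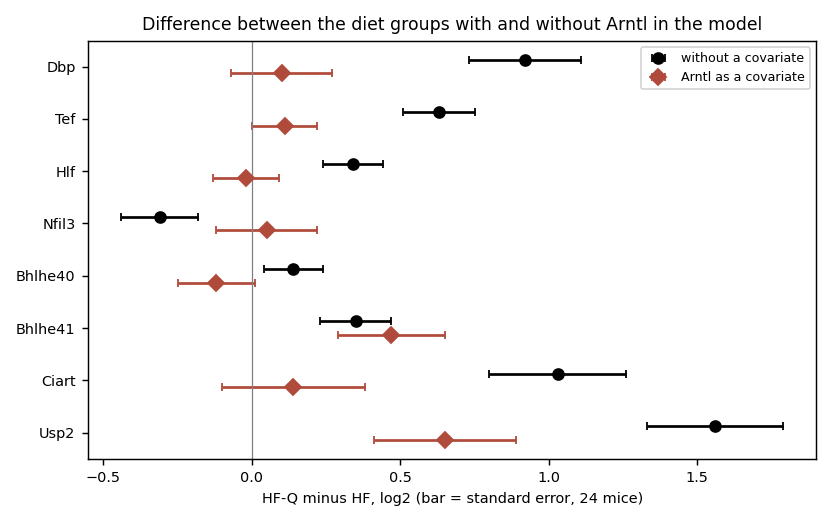
Difference between HF-Q and HF (x axis, log2, bar = standard error, 24 mice) for the brightest probe of each of the 8 genes, without a covariate (circles) and with Arntl as a covariate (diamonds). The difference of Dbp goes from 0.92 to 0.10 and that of Usp2 from 1.56 to 0.65.

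Within groups, the members formed a tight set around Dbp, Tef, Ciart and Usp2. In deviations from the group means over 36 mice, r was 0.96 between Dbp and Tef, 0.96 between Ciart and Usp2, 0.94 between Tef and Usp2, 0.92 between Dbp and Usp2 and 0.88 between Dbp and Ciart. Hlf (r = 0.67 with Dbp) and Bhlhe40 (r = 0.75) were looser, Nfil3 ran the other way (r = -0.61), and Bhlhe41 was only weakly related (r = 0.21). Among 13041 other genes by their brightest probes, Dbp was most like Tef, Usp2, Pcsk4 (r = 0.91), Ciart and Ankrd12 (r = 0.84), and among those running opposite were Arntl (r = -0.90), Grk5 (-0.84), Lrfn3 (-0.81) and Elovl3 (-0.79). Usp2 was most like Ciart, Tef, Dbp, Slc5a6 (r = 0.91) and Map2k6 (r = 0.88), and most opposite to Arntl (r = -0.87), Lrfn3, Spon2 and Elovl3 (each -0.86) and Clpx (-0.85). These correlations are descriptions over mice that share slides, the Cy3 pool and the split inside t=0.

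Of 14 core clock genes, 12 were in the table, Npas2 and Cry1 being outside it. Between HF-Q and HF, 2 were higher, 2 lower and 8 not called, with a median of 0.02 against 0.013 over all probes, of which 1.49% were higher and 0.863% lower. The called ones were Arntl and its partner Clock (-0.46, SE 0.09, adjusted p = 0.00437, limma) on the lower side, and Per3 (0.42) and Nr1d2 (0.42) on the higher side. Per3 belongs to the repressor limb, and Nr1d2 (Rev-erb beta) represses Arntl. Per1 (0.37, adjusted p = 0.323), Per2 (0.55, adjusted p = 0.152) and Nr1d1 (0.00, adjusted p = 0.988) were not called. Between HF and t=0, 1 of 12 was called (Per3, -0.28, adjusted p = 0.0379), against 21.3% of all probes, and between HF-Q and t=0, 0 of 12, against 11.9%, by limma.

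Of 8 genes reported as PAR bZip targets in liver, 7 were in the table and 6 were higher in HF-Q than in HF, with a median difference of 0.87, where 1.49% of all probes were higher. This list was chosen with earlier results of these data known, and the paper already reports Por and Nr1i3 as up-regulated on these arrays. The count is therefore a description and not independent support. Por, the electron donor of the cytochromes P450, rose by 0.98 (SE 0.15, adjusted p = 0.000785, limma), the steroid-metabolizing Cyp2a4 by 0.80 and Cyp2a5, which metabolizes coumarin, by 0.87. Cyp7a1, the rate-limiting enzyme of bile acid synthesis, rose by 1.08 (SE 0.28, adjusted p = 0.0404), and Nr1i3, the xenobiotic receptor Car, by 0.46 (SE 0.08, adjusted p = 0.00231). Cyp2c37 rose by 0.36, and Alas1, the first enzyme of haem synthesis, differed by 1.17 (SE 0.33, adjusted p = 0.0584). Cyp2a4 and Cyp2a5 are near-identical in sequence, so that their probes may read both. Between HF and t=0, 2 of the 7 were lower (Por -0.59 and Nr1i3 -0.27), against 10.4% of all probes. Between HF-Q and t=0, 1 of the 7 was higher (Cyp2c37, 0.49), against 6.62% of all probes, and so few genes do not set the list apart from the background in these comparisons.

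**Figure D5:**
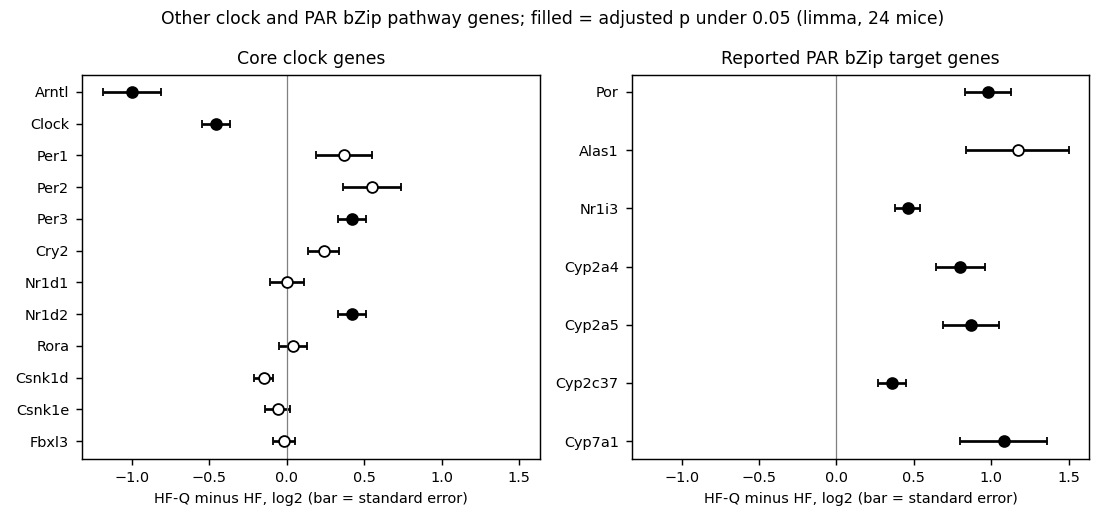
Difference between HF-Q and HF (x axis, log2, bar = standard error) for 12 core clock genes (left) and 7 reported PAR bZip target genes (right), brightest probe of each, with filled points at an adjusted p under 0.05 (limma, 24 mice). Arntl (-1.0) and Clock (-0.46) lie below 0, and all 7 target genes lie above 0, of which 6 are filled.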

How the data were processed

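Liver RNA of 36 mice was hybridised to 2-colour Agilent arrays, each with 1 mouse in Cy5 and a pool of all samples in Cy3. The authors quantified the scanned arrays with Agilent Feature Extraction (10.5.1.1 per the submitters' processing notes) and deposited the spot intensities and a table of log2 values. The methods of the paper name an older version of that software. That deposited log2 table is the main source. Its columns all had the same median. Differences between arrays in it matched log2 ratios of the median intensities without background subtraction (lowest r = 1 after rounding), so changes of dim probes are compressed. Within an array, its values and log2 scanner values correlated at a lowest r of 0.9999. Spots of 1 probe were averaged, which gave 21781 probes from 23256 spots. For probes outside the table, deposited intensities were background-corrected (normexp, offset 50) and loess-normalized.

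Pairs of groups were fitted with limma 3.58.1 in R 4.3.3 (lmFit, eBayes, 24 arrays a fit) and p-values were adjusted over all probes by Benjamini-Hochberg, with calls under 0.05. Genes are represented by their brightest probe unless a probe is named. Relations to Arntl were tested in Python with exact permutations for 8 mice and 100000 permutations for 12. The scripts were tested on simulated data. Replicate numbers did not pair the mice (median r = -0.01 over 12 pairs). Nothing shows whether animals shared a cage or litter. Precision was limited by 12 arrays a group. Alternatives covered normalization, background, filters, slide, replicate number, single mice and the methods' t-test. The members, the gene lists and the tests were chosen with earlier results of these data known.

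Named genes were all members by every probe, Arntl, the core clock and target lists, and the genes most and least like Dbp and Usp2 (5 each), of which some are not reported here. RefSeq promoter windows were searched on both strands, and probe positions are on mm8, with exon or UTR not assigned here.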

Additional observations from a re-analysis of the deposited data

How the results depend on the processing

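Between HF-Q and HF, the number of called member probes was 5 to 8 over 15 alternatives (7 as reported), and every called probe was higher in HF-Q. The share of all probes called was 0.964% to 3.15%, against 2.36% as reported. Between HF and t=0 the count of 6 became 1 of 15 probes with no filter, where 9.63% of all probes were called. It was 3 with a stricter filter on dim probes, which left 9 member probes (24.4%), and 2 with slide as a fixed block (17.3%). Otherwise it was 4 to 7, where 20.3% to 22.7% of all probes were called. With so few probes, these counts do not set the members apart from those shares. Between HF-Q and t=0, at equal Arntl and for the difference in slope, the count was 0 under every alternative run. Of all probes, 6% to 16.6% were called between HF-Q and t=0, at most 0.00459% at equal Arntl and 0% for the slope. With the replicate number as a replicate block the counts were 7, 7 and 0 for HF-Q against HF, HF against t=0 and HF-Q against t=0. The shares of all probes were 1.65%, 21.3% and 10.9%. Relations to Arntl past the threshold were 16 as reported, 5 without the 2 mice farthest from the median of Arntl, where fewer mice remained, and 27 with all 12 t=0 mice, as planned, which takes in the separate set. Without HF-Q replicate 2 they were 19, and without HF replicate 5, 12. No share over all probes was computed for these relations.

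The values that changed sign were small. Hlf between HF-Q and t=0 was 0.00 as reported, -0.01 from the loess ratios and with no filter (also with HF-Q replicate 2 left out of each), 0 after quantile normalization and -0.04 with slide as a fixed block. Bhlhe41 in that comparison was 0.07, and was 0 from the loess ratios and with no filter, -0.03 without HF-Q replicate 2, and -0.02 in both of the former without that mouse. At equal Arntl, leaving out HF-Q replicate 2 or HF replicate 5 gave -0.06 and 0.11 for Dbp, -0.03 and 0.11 for Tef, -0.21 and 0.29 for Ciart, and 0.11 and -0.02 for Nfil3, while Hlf was 0.06 from the loess ratios. The r with Arntl of Nfil3 in t=0 was -0.35 and that of Bhlhe41 in HF-Q -0.26 without the 2 farthest mice, and Bhlhe41 was -0.02 in HF-Q without HF-Q replicate 2 (0.43 without HF replicate 5, which leaves HF-Q as it was) and, in t=0, 0.15 from the loess ratios and 0.23 after slide means were subtracted. The cause was not tested. Leaving out HF replicate 5, leaving out HF-Q replicate 2 from the loess ratios or the unfiltered fit, and restricting the t=0 relation to 8 mice were choices made after seeing the data, while all 12 t=0 mice had been planned. Dim probes (Wee1, Bhlhe41, Ciart, the second Usp2 probe and the dimmer Tef probes) are limited by signal over background.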
